A study of Mus musculus with 12 samples.

Results

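The FOS, JUN, EGR and ATF3 factors are transcription factors most of whose genes are switched on within minutes when a cell is stimulated, stretched or injured. 10 of their genes were followed in ventricular RNA, namely Fos, Fosb, Fosl2, Jun, Junb, Jund, Egr1, Egr2, Egr3 and Atf3. They were taken by symbol from the 33641 genes listed, as a family chosen with earlier results of these data known. Each was above 0 in all 12 samples. RNA sequencing of the left ventricle (LV) and right ventricle (RV) was available for 3 samples per ventricle and genotype. In both genotypes the mouse Pln gene, which encodes the brake of the sarcoplasmic reticulum calcium pump, had been replaced by a human coding sequence through gene targeting and breeding to Sox2-Cre mice, which express the recombinase in the early embryo. WT-PLN mice carried the human wild type sequence, and R14del-PLN mice, whose samples are titled as knock-outs, carried 1 copy of it and 1 copy of the human sequence lacking arginine 14. The labels give the strain C57BL/6J and an age of 12 to 14 weeks for each sample, and the methods describe males of a hybrid line. The study compared the genotypes within each ventricle at an age before overt disease, and no treatment of the animals used for sequencing is stated.

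FOS and JUN proteins pair through leucine zippers to form AP-1, which binds a short palindromic DNA element and activates genes of growth, matrix remodelling and stress. JUN proteins can pair with each other, whereas FOS proteins need a JUN partner. ATF3 is a related leucine zipper protein that often represses its targets, and EGR proteins bind GC-rich elements through zinc fingers. In the heart these genes are known to respond to adrenergic stimulation, pressure load and ischaemia, and also to handling and removal of the tissue.

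In these data, Fos, Fosb, Junb, Egr1, Egr2 and Egr3 were 3.44 to 6.90 times as high in WT-PLN number 3 as in number 2 of the same ventricle, and both lay above each R14del-PLN sample. WT-PLN number 1 lay close to the R14del-PLN samples in both ventricles. The group means were lower in R14del-PLN hearts for 10 of 10 genes in each ventricle, but 0 of 10 genes passed the test across all genes, and for 8 of them the spread among the WT-PLN samples was above the 95th percentile of all genes. Jun and Jund varied least, and they were the genes with the lowest unadjusted p between RV and LV of WT-PLN hearts.

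A few libraries stand apart and bear on each result. The summed level of 4 Y-linked genes was 0.25 TPM and 0.28 TPM (the deposited unit, a gene's share of the transcripts in a sample with gene length accounted for) in the RV and LV samples of WT-PLN number 1, against 43.5 to 63.7 TPM in the other 10 samples, although the methods name male mice. R14del-PLN RV number 3 carries another sequencing run in its file naming than the other 11 samples. Mitochondrially encoded genes took 37.3% to 54.5% of the TPM of a sample. The summed level of 7 cardiomyocyte genes was between 28454 and 43159 TPM in each sample, and values of no 2 samples were identical. The knock-in alleles cannot be told apart from gene-level values, so the genotype labels were not checked on Pln. In bulk tissue, fewer cells of a type and less RNA per cell cannot be told apart.

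Upstream stretches of 3 genes are shown, Fos and Egr2 as genes that varied widely between the WT-PLN samples and Jun as one that varied little. The sequences come from RefSeq promoter windows of GRCm38.p6, in which 8 of 10 genes have an entry. Each is the 120 bases before an annotated start, written 5′ to 3′ on the strand of the gene, with the motifs found in capitals. The Fos stretch lies at chr12:85473770-85473889 on the plus strand, the Egr2 stretch at chr10:67537749-67537868 on the plus strand and the Jun stretch at chr4:95052223-95052342 on the minus strand.
Fos: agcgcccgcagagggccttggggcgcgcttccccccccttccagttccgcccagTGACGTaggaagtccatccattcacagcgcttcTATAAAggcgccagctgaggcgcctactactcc
Egr2: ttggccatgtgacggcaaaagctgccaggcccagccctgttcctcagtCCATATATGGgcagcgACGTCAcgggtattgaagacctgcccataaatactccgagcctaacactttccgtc
Jun: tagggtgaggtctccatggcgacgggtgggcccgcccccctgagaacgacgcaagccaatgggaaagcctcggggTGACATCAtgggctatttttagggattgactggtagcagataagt

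The capitals mark TGACGT and TATAAA in Fos, a CArG box (the element bound by serum response factor) and TGACGT on the other strand in Egr2, and TGACATCA in Jun. Windows of 250 bases before to 50 after a start were searched on both strands. A gene was counted when any of its windows matched, whereas the percentages count windows, so these are unlike measures. Egr2 had several windows, some of which overlap and share a TGACGT site. TGACGT, the core of the cyclic AMP response element, was in windows of 3 of the 8 genes (Fos, Egr2 and Atf3) and in 7.51% of all 32851 windows. The CArG box was in a window of 1 gene (Egr2) and in 1.63% of all windows. TGACATCA, a variant AP-1 element, was in 1 gene (Jun) and in 3.62% of windows, and TATAAA was in Fos and Junb and in 13.6% of windows. GCGNGGGCG, the EGR element, was in Fosb and Fosl2 and in 5.55% of windows. TGACGTCA, which contains TGACGT, and the AP-1 element TGANTCA were in 0 of the 8 genes and in 1.79% and 7.81% of all windows. A match is a description of letters and says nothing on binding in these hearts.

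On the GRCm38 assembly the 10 genes lie on chromosomes 1 (Atf3), 4 (Jun), 5 (Fosl2), 7 (Fosb), 8 (Junb and Jund), 10 (Egr2), 12 (Fos), 14 (Egr3) and 18 (Egr1). Fos spans 85473890 to 85477273, Jun spans 95049034 to 95052222, Junb spans 84974484 to 84978718 and Jund spans 70698949 to 70700616. Exons of Junb overlap those of Prdx2 on the other strand (mean level 275 TPM), and how the values were counted by strand is not stated. Prdx2 stayed between 182 and 341 TPM in the 12 samples, a far narrower range than that of Junb. Jun overlaps the antisense gene Junos and Jund overlaps the antisense gene Gm11175, and neither of these has a row in the deposited values. A near-identical match of Jund to Gm11175 was found, but the search did not separate a copy from this overlap. Levels of Jun, Junb and Jund are uncertain through these overlaps.

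Fos encodes the founding FOS protein, which is normally almost absent from resting heart muscle. Its level in LV was 1.19, 5.16 and 22.3 TPM in WT-PLN samples 1, 2 and 3, and 0.289, 0.287 and 0.958 TPM in R14del-PLN samples 1, 2 and 3. In RV it was 0.519, 3.38 and 14.2 TPM in WT-PLN and 0.419, 0.330 and 0.552 TPM in R14del-PLN samples. The genotypes did not overlap in LV and overlapped in RV, where WT-PLN number 1 lay inside the R14del-PLN range. The log2 difference of R14del-PLN minus WT-PLN, on the log2(TPM + 1) scale, was -2.20 ± 0.77 (SE, n = 3 per group, limma adjusted p = 0.332) in LV and -1.70 ± 0.77 (adjusted p = 0.792) in RV. That scale understates the difference for genes at low levels. For each gene, the SE of a genotype difference came from a spread pooled over all 4 groups, so LV and RV share it. This fit treated the samples of one number as independent, although the numbers pair WT-PLN samples. It also assumed an equal spread in both genotypes, which most of these genes did not show. The genotype p-values given here and below for single genes carry these limits.

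Fosb, which encodes a FOS protein also known for a long-lived truncated form, was the least abundant of the 10. It was at 0.0698, 0.775 and 3.85 TPM in LV and at 0.0419, 0.956 and 4.11 TPM in RV of WT-PLN samples 1, 2 and 3. In R14del-PLN hearts it was between 0.00818 and 0.103 TPM in the 6 samples. WT-PLN number 1 was thus near the R14del-PLN level and numbers 2 and 3 were far above it, in both ventricles.

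Fosl2 encodes FRA-2, a FOS relative that lacks a strong activation domain. In LV it was at 2.74, 10.9 and 9.46 TPM in WT-PLN samples 1, 2 and 3 and at 2.13, 2.15 and 2.52 TPM in R14del-PLN samples. In RV it was at 2.68, 9.27 and 7.10 TPM in WT-PLN and at 1.89, 2.11 and 1.97 TPM in R14del-PLN samples. WT-PLN and R14del-PLN ranges were apart in both ventricles, and here WT-PLN number 2 was above number 3. The log2 difference was -1.25 ± 0.40 in LV (SE, n = 3 per group, limma adjusted p = 0.272) and -1.17 ± 0.40 in RV (adjusted p = 0.496).

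Jun encodes the central JUN partner of AP-1. It was at 17.9, 24.5 and 26.8 TPM in LV of WT-PLN samples and at 13.4, 12.5 and 15.9 TPM in LV of R14del-PLN samples. In RV it was at 11.7, 16.5 and 17.2 TPM in WT-PLN and at 9.17, 13.9 and 9.69 TPM in R14del-PLN samples. The LV groups did not overlap and the RV groups did, with a highest to lowest ratio of only 1.27 to 1.52 within any group. The log2 difference was -0.68 ± 0.19 in LV (SE, limma adjusted p = 0.220) and -0.44 ± 0.19 in RV (adjusted p = 0.784).

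Junb encodes a JUN protein that activates weakly and can dampen JUN itself. It was at 4.63, 12.4 and 59.6 TPM in LV of WT-PLN samples 1, 2 and 3, against 2.80, 3.51 and 5.46 TPM in LV of R14del-PLN samples. In RV it was at 4.06, 11.1 and 38.1 TPM in WT-PLN and at 3.27, 2.78 and 3.43 TPM in R14del-PLN samples. The groups overlapped in LV through WT-PLN number 1 and did not overlap in RV. The log2 difference was -1.79 ± 0.74 in LV (SE, limma adjusted p = 0.453) and -1.69 ± 0.74 in RV (adjusted p = 0.784).

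Jund, which encodes the JUN protein usually present in resting cells, had the highest mean over the 12 samples, 29.0 TPM. It was at 33.8, 43.8 and 47.9 TPM in LV of WT-PLN samples and at 26.2, 29.5 and 25.8 TPM in LV of R14del-PLN samples. In RV it was at 26.9, 31.3 and 24.1 TPM in WT-PLN and at 21.6, 17.6 and 19.5 TPM in R14del-PLN samples. WT-PLN and R14del-PLN ranges were apart in both ventricles. The log2 difference was -0.59 ± 0.15 in LV (SE, limma adjusted p = 0.129, the smallest of the 10 genes) and -0.46 ± 0.15 in RV (adjusted p = 0.421).

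**Figure D1:**
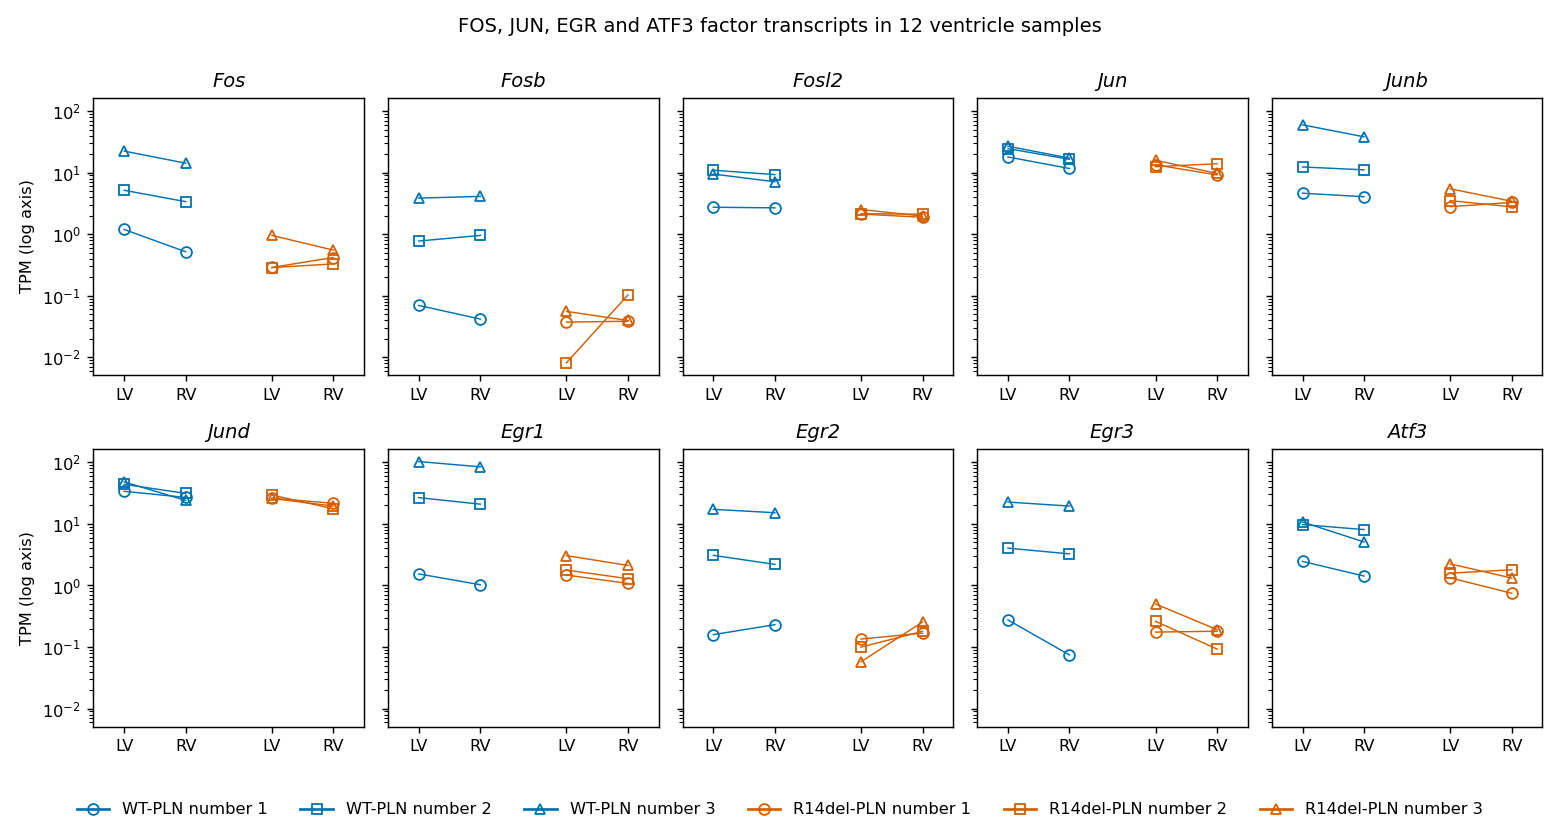
Level of each gene in TPM (log axis) in LV and RV of WT-PLN (blue) and R14del-PLN (orange) hearts, 1 point per sample, with the symbol giving the replicate number and a line joining LV and RV of one number. WT-PLN number 3 reaches 103 TPM for Egr1 while number 1 lies at 1.54 TPM, inside the R14del-PLN range, whereas Jun and Jund stay within a narrow band.

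Egr1 encodes the best known EGR protein, a rapid zinc finger regulator. It reached the highest single value of the family, at 1.54, 26.7 and 103 TPM in LV and 1.03, 20.9 and 84.4 TPM in RV of WT-PLN samples 1, 2 and 3. In R14del-PLN samples it was at 1.48, 1.78 and 3.05 TPM in LV and at 1.08, 1.29 and 2.11 TPM in RV. WT-PLN number 1 lay inside the R14del-PLN range in LV and below it in RV, while number 2 was at 8.73 times the highest R14del-PLN sample in LV and 9.88 times in RV. The log2 difference was -2.68 ± 1.24 in LV (SE, limma adjusted p = 0.519) and -2.67 ± 1.24 in RV (adjusted p = 0.803), the largest of the 10 genes on this scale. With a pseudocount of 0.1 in place of 1 it was -2.97 in LV, where Egr2 (-3.64), Fos (-3.30) and Egr3 (-3.07) were larger, and -3.04 in RV, where Egr3 (-3.17) was.

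Egr2 encodes an EGR protein known from nerve myelination and immune cells. It was at 0.159, 3.08 and 17.2 TPM in LV and at 0.231, 2.20 and 15.2 TPM in RV of WT-PLN samples, and between 0.0578 and 0.255 TPM in R14del-PLN samples. Egr3, which is induced by much the same stimuli, was at 0.276, 4.04 and 22.6 TPM in LV and at 0.0745, 3.26 and 19.5 TPM in RV of WT-PLN samples, and between 0.0927 and 0.50 TPM in R14del-PLN samples. In WT-PLN RV the highest to lowest ratio was 65.7 for Egr2 and 261 for Egr3. The log2 differences were -2.01 ± 0.88 for Egr2 and -2.03 ± 0.96 for Egr3 in LV, and -1.73 ± 0.88 and -1.98 ± 0.96 in RV (SE).

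Atf3 encodes a stress-induced partner of JUN proteins. It was at 2.46, 9.74 and 10.7 TPM in LV and at 1.42, 8.08 and 5.08 TPM in RV of WT-PLN samples 1, 2 and 3. In R14del-PLN samples it was at 1.33, 1.58 and 2.24 TPM in LV and at 0.748, 1.80 and 1.32 TPM in RV. As for Fosl2, WT-PLN numbers 2 and 3 were alike, with a ratio of number 3 to number 2 of 1.10 in LV and 0.629 in RV. The log2 difference was -1.49 ± 0.47 in LV (SE, limma adjusted p = 0.269) and -1.19 ± 0.47 in RV (adjusted p = 0.669).

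The order of the genes by level depended on the sample group. In R14del-PLN LV, Jund (27.2 ± 2.00 TPM) was above Jun (13.9 ± 1.76), which was above Junb (3.92 ± 1.37; SD, n = 3 each). They were followed by Fosl2 (2.26 ± 0.219), Egr1 (2.10 ± 0.837) and Atf3 (1.72 ± 0.472), whose ranges overlapped from one to the next. Fos (0.511 ± 0.387) and Egr3 (0.312 ± 0.168) overlapped as well, and Egr2 (0.0976 ± 0.0386) and Fosb (0.0338 ± 0.0240) were lowest and just failed to overlap. In WT-PLN LV the mean of Egr1 (43.6 ± 52.7 TPM) was above that of Jund (41.8 ± 7.29 TPM), but Egr1 ranged from below Fosl2 to above Jund between the 3 samples.

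Against this spread, the test of genotype across 12526 genes called 0 of 10 genes in LV, where 0.519% of all genes were called, and 0 of 10 in RV, where 0.271% were. At an unadjusted p of at most 0.05, 8 of 10 genes were lower in R14del-PLN LV (not Fosb and Egr3), beside 7.85% of all genes. In RV 6 of 10 were lower (Fos, Fosl2, Jun, Junb, Jund and Atf3), beside 3.4% of all genes. Groups did not overlap, with R14del-PLN lower, for 7 of 10 genes in LV (not Junb, Egr1 and Egr3), beside 8.47% of all genes, and for 3 of 10 in RV (Fosl2, Junb and Jund), beside 5.79%. The median log2 difference of the 10 genes was -1.64 in LV and -1.44 in RV, beside -0.086 and -0.0034 over all genes tested. Two-sided exact permutation tests of single genes gave p = 0.1 for 7 genes in LV and 3 in RV, which is the smallest p that 3 samples against 3 allow, and the others lay between 0.2 and 0.4. Fosb, Egr2 and Egr3 passed the filter of a mean of 0.5 TPM only through WT-PLN numbers 2 and 3. Counts that include them therefore lean on the samples in which they are high.

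The calls turned on WT-PLN number 1. Without its LV and RV samples, 9 of 10 genes were called lower in R14del-PLN LV (not Fosb), beside 1.84% of all genes, and 3 of 10 in RV (Fosl2, Egr1 and Atf3), beside 0.703%. The 9 include Egr2 and Egr3, which passed the filter only through the WT-PLN samples kept in this fit. Without the LV sample of number 1 alone, 3 of 10 were called in LV (Fosl2, Jund and Atf3), beside 1.22% of all genes. Without the pair, the log2 difference of Egr1 was -4.14 in both ventricles (limma adjusted p = 0.00276 for LV and 0.00361 for RV). Number 1 held the lowest WT-PLN value of 10 of 10 genes in LV and of 9 of 10 in RV (not Jund), so that the difference widens when it is left out. Without the pair of number 3, 0 of 10 genes were called in either ventricle, and the log2 difference of Egr1 was -1.47 in LV.

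**Figure D2:**
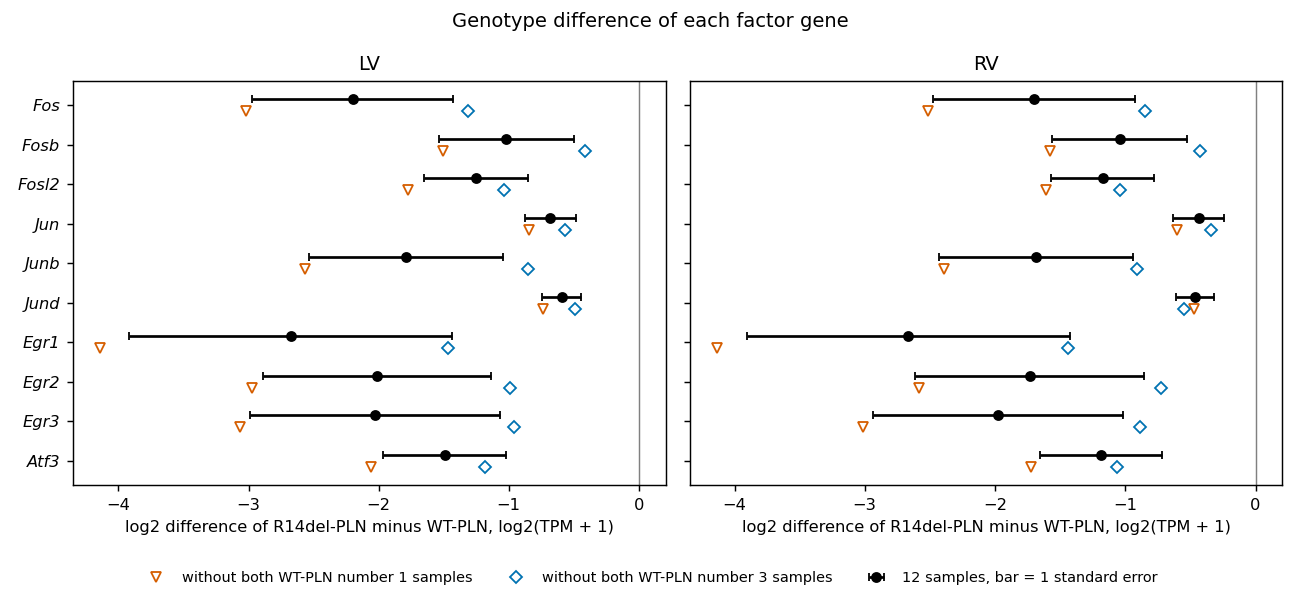
Log2 difference of R14del-PLN minus WT-PLN on the log2(TPM + 1) scale for each gene in LV (left) and RV (right), with the fit of 12 samples as black points (bar, 1 SE) and the fits without both samples of WT-PLN number 1 (orange triangles) or number 3 (blue diamonds). The points lie below 0 in each fit shown, and those without number 3 are nearer to 0 than those without number 1 except for Jund in RV.

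The spread itself was wide in WT-PLN samples, and its median was near that of all genes in R14del-PLN samples. The SD of log2(TPM + 1) within groups, pooled over LV and RV, had a median of 1.37 over the 10 genes in WT-PLN hearts, beside 0.163 over all genes tested, and 8 of 10 genes lay above the 95th percentile of all genes. In R14del-PLN hearts the median was 0.190 over the 10 genes, beside 0.195 over all genes, and 0 of 10 lay above the 95th percentile. For Egr1 the SD was 2.72 in WT-PLN samples and 0.340 in R14del-PLN samples, and for Egr2 it was 1.93 and 0.0535. Jun, at 0.288 and 0.244, and Jund, at 0.222 and 0.122, were the genes that did not pass the 95th percentile in WT-PLN hearts. The difference in spread was not tested, and a low level compresses the SD on this scale.

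**Figure D3:**
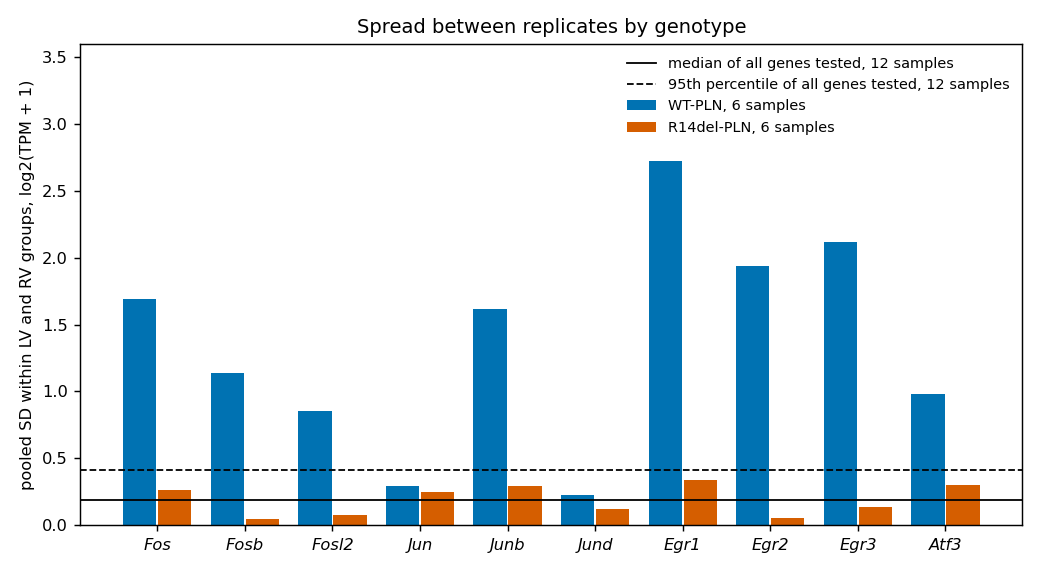
Pooled SD of log2(TPM + 1) within the LV and RV groups of WT-PLN (blue) and R14del-PLN (orange) hearts, 6 samples each, with lines for the median (0.188) and the 95th percentile (0.413) of all 12526 genes over the 12 samples. 8 of 10 WT-PLN bars rise above the dashed line and none of the R14del-PLN bars does.

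The genes also moved together from sample to sample. Over the 45 pairs of genes, the correlation of deviations from group means across the 12 samples, which share libraries and in part hearts, ran from 0.112 (Jun with Jund) to 0.995 (Fos with Egr3), with a median of 0.738. The share of variance lying between the 6 pairs of genotype and number was 92.0% to 99.7% for 8 of 10 genes, 60.7% for Jun and 48.3% for Jund, beside a median of 47.3% over all genes. For Jund, 86.6% lay between the 4 groups of genotype and ventricle, and for Jun 73.8%, beside a median of 33.6% over all genes. The share between pairs holds the genotype difference as well as that between numbers, so the shares do not separate genotype from number.

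LV and RV samples of one number were compared next, since most of the variance of 8 of 10 genes lay between such pairs. RV was below LV in 6 of 6 pairs for Fosl2, Jund and Egr1, which 12.7% of all genes tested also did. It was below in 5 of 6 pairs for Jun, Junb, Egr3 and Atf3, in 4 for Fos and in 2 for Fosb and Egr2. Under quantile normalization, added after the values were seen, the counts were 3 for Fosl2 and 1 for Egr2. The median RV minus LV log2 difference of all genes was itself -0.165 for WT-PLN samples and -0.076 for R14del-PLN samples, with 85.9% and 70.3% of genes below 0.

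In WT-PLN hearts Jund had an RV minus LV log2 difference of -0.59 ± 0.15 (SE, limma adjusted p = 0.211) and Jun of -0.58 ± 0.19 (adjusted p = 0.272), and the ventricles did not overlap for either. These were the 2 of 10 genes lower in RV at an unadjusted p of at most 0.05, beside 13.8% of all genes, and 0 of 10 were called, beside 0% of all genes. Deviations of LV and RV samples of one WT-PLN number correlated at 0.321 to 0.657 over all genes, so that the numbers pair these samples. With the pair as a replicate block, 5 of 10 genes were lower at an unadjusted p of at most 0.05 (Fos, Jun, Jund, Egr1 and Atf3), beside 14.4% of all genes, and 0 of 10 were called, beside 0.0958%. For Fos the block left the log2 difference at -0.55 and took its SE from 0.77 to 0.14 (adjusted p = 0.128), since Fos was 1.53 to 2.30 times as high in LV as in RV of each WT-PLN number. LV and RV samples of one WT-PLN number thus moved together for Fos. The WT-PLN spread given above was taken within each ventricle, so a difference between ventricles could not enter it.

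In R14del-PLN hearts 0 of 10 genes were called between ventricles, beside 0% of all genes, and 1 of 10 (Jund, -0.46 ± 0.15, SE) was lower in RV at an unadjusted p of at most 0.05, beside 6.07%. The interaction of genotype and ventricle called 0 of 10 genes, beside 0% of all genes. On the log2(TPM + 1) scale Fos had the largest interaction, 0.50 with a 95% interval of -1.87 to 2.86. With the pair as a replicate block its SE was 0.20, with a limma unadjusted p of 0.024 and adjusted p of 0.9999. Pairing by number was clear in WT-PLN hearts and not settled in R14del-PLN hearts. At the adjusted threshold the genotype differences in LV and RV were not shown to differ for any of the 10 genes.

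The genes most like the family were found by the Pearson correlation of log2(TPM + 1) with the mean standardised level of the 10 genes, over 12 samples and 6846 other genes whose mean was 5 TPM or more. They were Btg2 (0.992), Nr4a1 (0.986), Thbs1 (0.982), Errfi1 (0.972), Ier2 (0.969) and Dnajb1 (0.959). On deviations from group means they were Thbs1 (0.984), Nr4a1 (0.981), Errfi1 (0.973), Btg2 (0.970), F2r (0.969) and Tmem181b-ps (0.953). Btg2, Nr4a1 and Ier2 are known early response genes, Errfi1 encodes a feedback inhibitor of the epidermal growth factor receptor, Thbs1 encodes a matrix glycoprotein and Dnajb1 a chaperone. Thbs1 ranged from 1.33 to 59.5 TPM in WT-PLN LV and from 0.689 to 1.27 TPM in R14del-PLN LV, a span like that of Egr1.

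The other genes of the pathway were read from lists. Of all genes, 0.519% were called in LV and 0.271% in RV, so that 0 called genes in a short list says little. Among 21 MAP kinases and ribosomal S6 kinases, which relay signals to these promoters, 0 were called in either ventricle, and the smallest p in LV belonged to Mapk3 (log2 difference -0.17 ± 0.11) and Rps6ka4 (-0.15 ± 0.12; SE). Among 13 transcription factors that act on the promoters, such as serum response factor and its partners, 0 were called, with the smallest p for Mkl2 (-0.31 ± 0.17) and Mef2a (-0.24 ± 0.15). Among 18 other AP-1 and leucine zipper genes 0 were called, the smallest p being that of Maff (-1.12 ± 0.24, limma adjusted p = 0.071) and Jdp2 (-0.75 ± 0.18, adjusted p = 0.118). Without the pair of WT-PLN number 1, Maff and Jdp2 were called lower in LV and Maff in RV. The MAP kinase, upstream factor and EGR relative lists then had 0 genes called, beside 1.84% of all genes in LV and 0.703% in RV. Among 3 EGR relatives and corepressors 0 were called, with Wt1 at -0.51 ± 0.19 and Nab2 at -0.51 ± 0.30. Nab2, a corepressor induced by EGR proteins, was at 1.88, 3.84 and 6.18 TPM in WT-PLN LV samples 1, 2 and 3 and at 1.87 to 2.88 TPM in R14del-PLN LV, so that number 1 again lay at the R14del-PLN level.

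Of 29 other early response genes, 4 were called lower in R14del-PLN LV and 1 in RV, and 0 were called higher, beside the shares of 0.519% and 0.271% of all genes called in these comparisons. At a limma unadjusted p of at most 0.05, 22 were lower in LV and 15 in RV, beside 7.85% and 3.4% of all genes. At that threshold 3 were higher in LV and 3 in RV. Rhob (-0.66 ± 0.12, limma adjusted p = 0.032), Klf2 (-1.42 ± 0.27, adjusted p = 0.033), Ier5 (-0.97 ± 0.19, adjusted p = 0.047) and Ctgf (-1.95 ± 0.39, adjusted p = 0.048) fell in LV, and Ctgf fell in RV (-2.62 ± 0.39, adjusted p = 0.010). Ctgf, which encodes a matrix protein induced by stretch, was at 57.7, 119 and 146 TPM in WT-PLN LV and at 22.3 to 28.5 TPM in R14del-PLN LV, so that WT-PLN number 1 was above the R14del-PLN range here. Without the pair of WT-PLN number 1, 15 of 29 were called lower in LV and 10 in RV, beside 1.84% and 0.703% of all genes called.

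Of 18 genes known as AP-1, ATF3 or EGR targets, 2 fell in LV and 1 in RV, beside 0.519% and 0.271% of all genes called, and of these Chac1 is described here. Chac1, which encodes a glutathione-degrading enzyme of the stress response, fell in LV (-1.31 ± 0.21, limma adjusted p = 0.017). It was at 3.01, 5.41 and 4.98 TPM in WT-PLN LV and at 0.93, 0.91 and 1.75 TPM in R14del-PLN LV. WT-PLN number 1 thus lay above the R14del-PLN range and below the other WT-PLN samples. Without the pair of WT-PLN number 1, 6 of 18 were called lower in LV and 3 in RV, beside 1.84% and 0.703% of all genes.

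Genes induced by glucocorticoids, the adrenal stress hormones, differed from the 10 factors in where WT-PLN number 1 lay. Of 10 such genes 7 fell in LV (Tsc22d3, Fkbp5, Per1, Zbtb16, Cdkn1a, Klf9 and Mt2) and 3 in RV (Tsc22d3, Per1 and Zbtb16), beside 0.519% and 0.271% of all genes called, and their summed level was 531 to 855 TPM in the WT-PLN samples and 295 to 416 TPM in the R14del-PLN samples. Tsc22d3, which encodes the leucine zipper protein GILZ, was at 74.3, 105 and 89.5 TPM in WT-PLN LV and at 31.5, 38.3 and 45.4 TPM in R14del-PLN LV (-1.20 ± 0.15, limma adjusted p = 0.0023). WT-PLN number 1 thus lay with the other WT-PLN samples for this list and nearer to the R14del-PLN samples for the 10 factors. In LV it was still above the highest R14del-PLN sample for 7 of the 10 factors, beside 9 of the 10 glucocorticoid-induced genes. In RV it was above for 3 of the 10 factors, beside 9 of the 10 glucocorticoid-induced genes. The median over genes of the log2 difference from the R14del-PLN mean in LV was 0.92, 1.36 and 1.17 in WT-PLN samples 1, 2 and 3 for the glucocorticoid-induced genes, and 0.21, 1.88 and 2.94 for the 10 factors. Without the pair of number 1, 7 of the glucocorticoid-induced genes were called in LV and 5 in RV, beside 1.84% and 0.703% of all genes. The part that this list plays in the levels of the 10 factors was not tested.

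**Figure D4:**
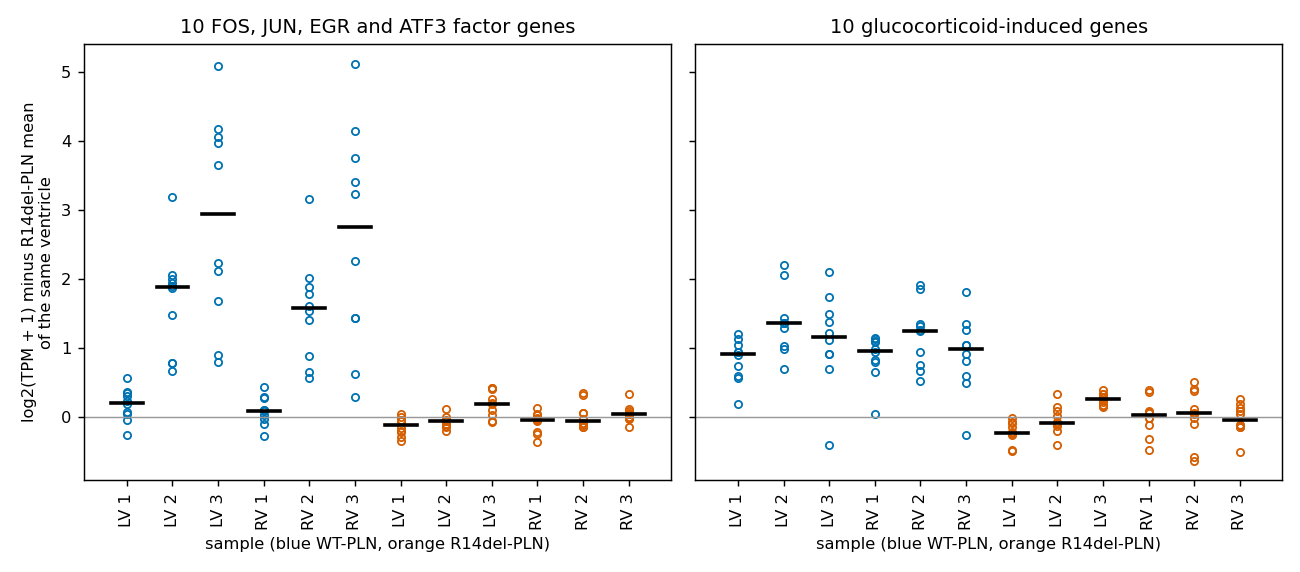
Difference of log2(TPM + 1) from the R14del-PLN mean of the same ventricle in each sample, 1 circle per gene with the median as a black bar, for the 10 factor genes (left) and 10 glucocorticoid-induced genes (right). WT-PLN LV 1 has a median of 0.21 on the left and 0.92 on the right, while WT-PLN LV 3 has 2.94 and 1.17.

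Markers of other cell types were set beside the factors. With 0.519% of all genes called in LV and 0.271% in RV, 0 called genes in lists this short says little on the cells present. The summed level of 5 neutrophil genes was 0.67, 3.20 and 13.6 TPM in LV and 0.49, 1.92 and 4.33 TPM in RV of WT-PLN samples 1, 2 and 3, in the same order as Egr1. It was 0.63 to 1.28 TPM in R14del-PLN samples, where the defining gene Ly6g was at 0. In WT-PLN samples the lowest of the 5 genes was also at 0, except in LV number 3, where it was at 0.036 TPM. Of the 2 neutrophil genes that could be tested, 0 were called in either ventricle. S100a8 was called lower in LV without the pair of WT-PLN number 1, beside 1.84% of all genes called. Smooth muscle and pericyte genes (6 genes) summed to 396 TPM in WT-PLN LV number 3 against 150 to 241 TPM in the other 11 samples. Atrial genes (4 genes) summed to 1296 TPM in WT-PLN LV number 3 and to 871 TPM in WT-PLN RV number 2, against 45.6 to 521 TPM in the other 10. In RV number 3, where Egr1 was at 84.4 TPM, the atrial genes summed to 86.3 TPM. Endothelial, fibroblast, macrophage and cardiomyocyte lists had 0 genes called between genotypes, and their ranges overlapped between the genotypes in both ventricles. Red cell genes had 0 called as well, and summed to 1461 to 2316 TPM in WT-PLN and 956 to 2142 TPM in R14del-PLN samples, without overlap between the genotypes in RV. The part of other cells in the levels of the factors was not tested.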

How the data were processed

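The authors deposited 1 TPM value per gene for each of 12 samples, made from stranded polyA libraries, and these values were used as deposited. The study names CLC Genomics Workbench and GRCm38. The annotation behind the TPM values and the counting by strand are not given in the sources used here. TPM sums to 1000000 in each sample and keeps no depth, so no counting error could be given, and the p-values measure the spread between these samples.

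Groups came from the sample titles. limma 3.58.1 in R 4.3.3 (8 residual and 5.15 prior degrees of freedom, intensity trend) was fitted to log2(TPM + 1) of the 12526 genes averaging 0.5 TPM or more, with 4 group means. Called genes had a fold of 1.5 or more and an adjusted p (Benjamini-Hochberg, over all genes) up to 0.05. The fit was tested on simulated data. The members and gene lists were chosen with earlier results of these data known. The named genes are the 10 members, the 6 genes most like them by each measure, and from each list the genes called or the 2 with the smallest p in LV, and some genes are not reported here. Nab2 and Thbs1 values, S100a8, Ly6g and the lists without WT-PLN number 1 were chosen after values were seen.

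Deviations of LV and RV samples of one number correlated at 0.657, 0.321 and 0.457 in WT-PLN and at 0.389, 0.230 and 0.0542 in R14del-PLN hearts. Numbers thus pair the samples in WT-PLN hearts. In R14del-PLN hearts LV and RV samples of different numbers correlated at up to 0.160, so that pairing was not settled there, least of all for number 3. Between genotypes, samples of one number correlated at -0.0759 to 0.219 and samples of different numbers at -0.226 to 0.160. The labels do not say that a number is shared between genotypes, and whether it marks anything shared was not tested. Near-identical copies were sought with BLAST 2.17.0 (95% identity over 80% of the length). The rest used matplotlib 3.10.9, scipy 1.17.1, pandas 2.3.3 and numpy 2.4.6 in Python 3.11.15.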

Additional observations from a re-analysis of the deposited data

How the results depend on the processing

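In the 378 alternative values of the genotype difference of single genes, 378 were below 0 and 16 were called, 15 of them in fits that leave out WT-PLN number 1. Counts of called genes out of 10 ranged from 0 to 9 in LV and from 0 to 3 in RV over fits that leave out a sample or a pair, and were 0 throughout for RV against LV and the interaction. Counts of genes lower at an unadjusted p of at most 0.05 ranged from 4 to 10 in LV and from 1 to 10 in RV. They fell to 5 in LV and 2 in RV with no filter on low values, an alternative that tests more genes, and the cause was not tested. With the replicate number as a replicate block, 1 gene (Atf3, limma adjusted p = 0.039) was called in LV. In RV 10 were then lower at an unadjusted p of at most 0.05. This block treats equal numbers as alike between genotypes, which the labels do not state. That replicate block changed no other call. The median over the 10 genes of the SD pooled over all 4 groups was 0.980, and 0.684 without the WT-PLN number 1 pair. RV minus LV differences in WT-PLN hearts took either sign when 1 unpaired sample was left out, from -1.40 to 0.34 for Fos, -0.55 to 0.66 for Fosb, -0.73 to 0.23 for Fosl2, -1.09 to 0.63 for Junb, -1.78 to 1.16 for Egr1, -1.15 to 0.88 for Egr2 and -1.32 to 0.84 for Egr3. In R14del-PLN hearts they ran from -0.15 to 0.15 for Fos and -0.38 to 0.0036 for Junb, and the interaction of Fos ran from -0.39 to 1.35. Removal of mitochondrially encoded genes gave 0.040 for Fos between ventricles of R14del-PLN hearts. The fits without WT-PLN pair 2 or 3 were chosen after seeing the data.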
